A study of Rattus norvegicus with 24 samples.

Results

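A set of 8 genes that mark lipid-associated macrophages was followed through spatial profiles of diabetic rat wounds: Apoe, Trem2, Gpnmb, Spp1, Cd9, Fabp5, Lgals3 and Plin2. They were taken by target name, and all 8 were found among the 19962 gene targets of every area. Lipid-associated macrophages are tissue macrophages that take up lipid and cell debris, and they have been described in fat, atherosclerotic plaque, fatty liver and healing or scarring tissue. The receptor TREM2 senses lipids and lipoproteins on their surface, APOE carries cholesterol out of the cell, fatty acid binding proteins and perilipins handle the stored lipid, and the secreted protein osteopontin (Spp1) marks a subset linked to repair and fibrosis. In skin wounds several of these genes are also used by other cells: fibroblasts, keratinocytes, sebaceous cells or fat cells can express Apoe, Cd9, Fabp5, Lgals3 or Plin2, and osteopontin is made by many injured tissues.

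All animals were male SD rats made diabetic with STZ (streptozotocin) at 5 weeks of age, so the Sham group was diabetic and wounded too. Each group had a splinted full-thickness skin wound of 8 mm, labelled Sham, Gel or CuNZ@Gel, and tissue was taken at day 7. The series title names a sprayable nanozyme hydrogel, and the labels give neither its composition nor what a Sham wound received. GeoMx profiling, which reads probe tags cut by light from chosen areas of a fixed section, gave 24 areas: each of the 3 treatments had 2 numbered specimens, each specimen 2 regions, and each region 2 segments. The labels name neither the antibodies that defined a segment, nor what "mac" in the region names stands for, nor whether a specimen number stands for 1 animal. Areas of 1 specimen share it, so treatments were compared over 2 specimens against 2. For the 8 genes other than Spp1, limma's p-values rest on a spread between specimens that is largely pooled over targets. They cover only these specimens and may be too small. In such areas, fewer cells of a type and less RNA per cell cannot be told apart.

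Recovered totals ran from 86385 to 1476499 counts per area. Segment 2 areas were shallower (median 170040 counts) than Segment 1 areas (median 533133.5), and this held in 11 of the 12 regions. The signal is scaled to each area's 75th percentile, and 1 count was worth a median of 0.647 in Segment 1 and 2.04 in Segment 2. As the signal that a target without its RNA could show, called the background here, each area's 99th percentile over 1116 targets for odorant and pheromone receptors was used; it lay between 11.4 and 21.6 (median 14.3). Of the macrophage markers, 10 of 20 exceeded it in at least 4 areas: Cd68, Csf1r, Fcer1g, Lyz2 and C1qc were among those that did so in all 24, while Adgre1, Cd14, Aif1, Itgam, Spi1 and Tyrobp did so in 0. By the same measure 0 of 15 keratinocyte markers, although the tissue is labelled skin, and 8 of 12 fibroblast markers exceeded it.

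Of the 8 genes, 4 stood above background in at least 4 areas. Plin2 exceeded it in 24 of 24 areas, Apoe in 23, Spp1 in 9 and Fabp5 in 6. Lgals3 exceeded it in 2 areas, and Trem2, Gpnmb and Cd9 in 0. Trem2, the receptor most tied to this macrophage state, was therefore not detectable above background in these areas.

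**Figure D1:**
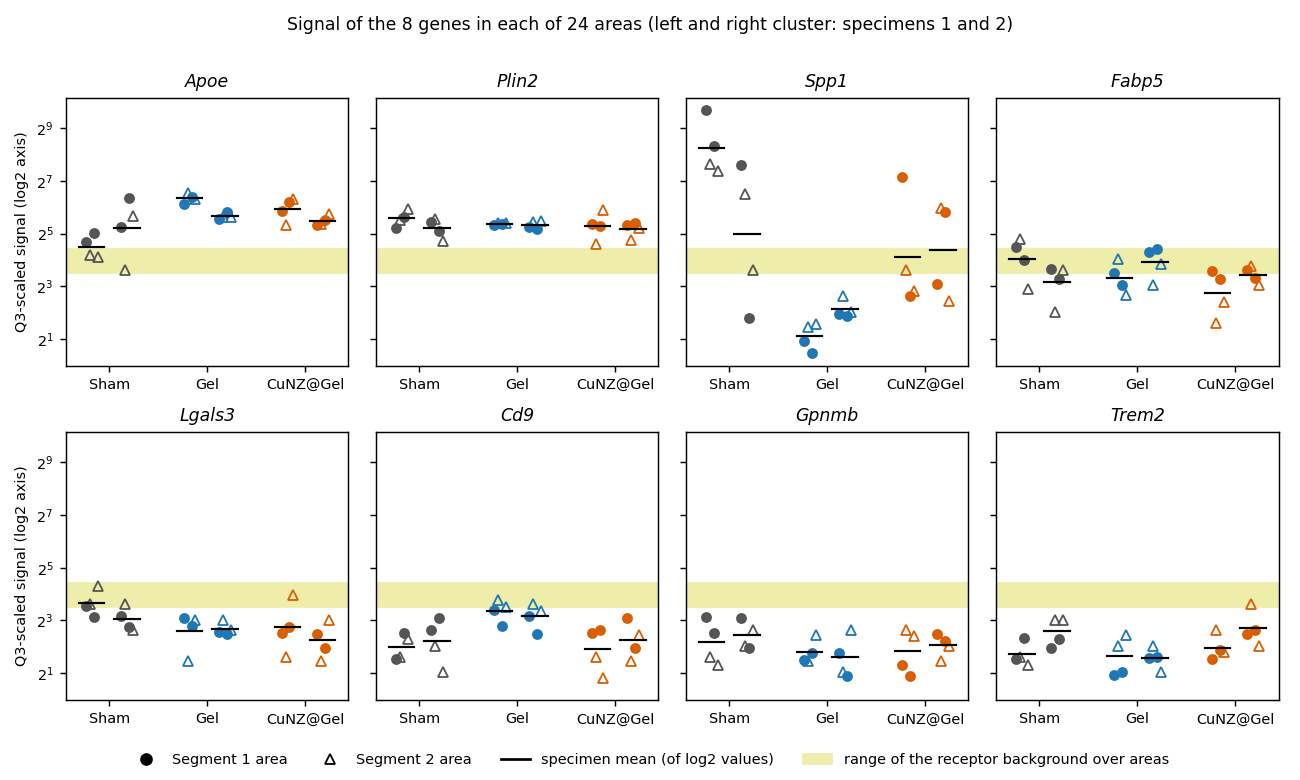
Each point is the Q3-scaled signal (log2 axis) of 1 gene in 1 area, grouped by treatment and specimen, with filled circles for Segment 1, open triangles for Segment 2 and a line at each specimen's mean of log2 values; the band spans the background of 11.4 to 21.6. Spp1 lies far above the band in 6 of 8 Sham areas and below it in all 8 Gel areas, Apoe and Plin2 lie above it nearly throughout, and Trem2, Gpnmb and Cd9 never exceed their area's background.

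Spp1 encodes osteopontin, a secreted protein that binds integrins and CD44 on other cells. In Sham specimen 1 its signal was 826.7, 202.4, 320.3 and 166.8 in the 4 areas, and in Sham specimen 2 it was 194.1, 92.0, 3.50 and 12.3. In Gel the 8 areas held 1.36 to 6.13 (median 3.32), from 2 to 9 counts each. CuNZ@Gel lay between, with 141.9, 12.3, 6.13 and 7.01 in specimen 1 and 8.49, 62.7, 56.0 and 5.45 in specimen 2. Spp1 was thus above background in 6 of 8 Sham areas, 0 of 8 Gel areas and 3 of 8 CuNZ@Gel areas.

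Over specimens the Spp1 mean was 227 ± 215 for Sham, 3.33 ± 1.55 for Gel and 37.5 ± 6.13 for CuNZ@Gel (SD, n = 2). The Gel areas overlapped those of Sham only through 1 Sham area, at 3.50. The difference between Gel and Sham was -4.60 on the log2(signal + 1) scale (SE 1.29, 95% interval -8.44 to -0.76), and it did not pass limma's test (Benjamini-Hochberg adjusted p = 0.335). The order of the levels was Sham, CuNZ@Gel, Gel, and no neighbouring pair differed by that test: CuNZ@Gel against Sham was -2.33 (adjusted p = 0.661) and CuNZ@Gel against Gel was 2.27 (adjusted p = 0.933).

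Spp1 was called under some other settings. In the limma fit above Spp1 had an SD of 1.29, near its own SD of 1.37. The other settings draw on the same specimens, so their calls are not independent support. For the fit without trend and robust, edgeR and DESeq2, the spread used for Spp1 was not set beside its own SD. A fit without trend and robust called Gel against Sham (adjusted p = 2.17e-05), as did edgeR on the recovered counts (log2 difference -6.65, adjusted p = 4.59e-05) and DESeq2 (-6.66, adjusted p = 1.88e-08). The difference was negative in all 22 alternative settings, between -6.66 and -2.97, and it was called in 9 of them.

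Apoe, the apolipoprotein through which macrophages export cholesterol, went the other way. In Sham specimen 1 it stood at 26.0, 18.4, 32.5 and 17.2, and in Sham specimen 2 at 37.8, 12.3, 81.3 and 51.1. In Gel specimen 1 it stood at 69.8, 94.0, 83.1 and 79.9, and in Gel specimen 2 at 47.4, 49.1, 55.8 and 49.1. In CuNZ@Gel specimen 1 it stood at 58.1, 39.9, 73.6 and 78.8, and in specimen 2 at 39.6, 40.9, 46.0 and 53.1. The highest Sham areas, both in region 2 of specimen 2, lay among the Gel areas, and the other 6 Sham areas lay below every Gel area.

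The Apoe mean was 34.6 ± 15.6 for Sham, 66.0 ± 22.2 for Gel and 53.7 ± 12.5 for CuNZ@Gel (SD, n = 2). It rose in Gel against Sham by a log2 difference of 1.10 (SE 0.22, limma adjusted p = 0.000728) and in CuNZ@Gel against Sham by 0.81 (SE 0.22, adjusted p = 0.0431). Both comparisons use the same Sham specimens. Gel and CuNZ@Gel were not told apart (log2 difference -0.29, 95% interval -0.73 to 0.15, adjusted p = 0.946).

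These SEs rest on an SD of 0.218 largely pooled over targets, while Apoe's own SD between specimens was 0.436. The Gel call was lost in 9 of 22 settings, among them edgeR (log2 difference 0.61, adjusted p = 0.340), DESeq2 (0.58, adjusted p = 0.607), the omission of Sham specimen 1 (0.75, adjusted p = 0.130) and the omission of Gel specimen 1 (0.76, adjusted p = 0.0648). The CuNZ@Gel call was lost in 15 of 22, also without Sham specimen 1 (0.46, adjusted p = 0.868), CuNZ@Gel specimen 1 (0.59, adjusted p = 0.605) or CuNZ@Gel specimen 2 (1.03, adjusted p = 0.0551). The direction was the same in all of these.

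**Figure D2:**
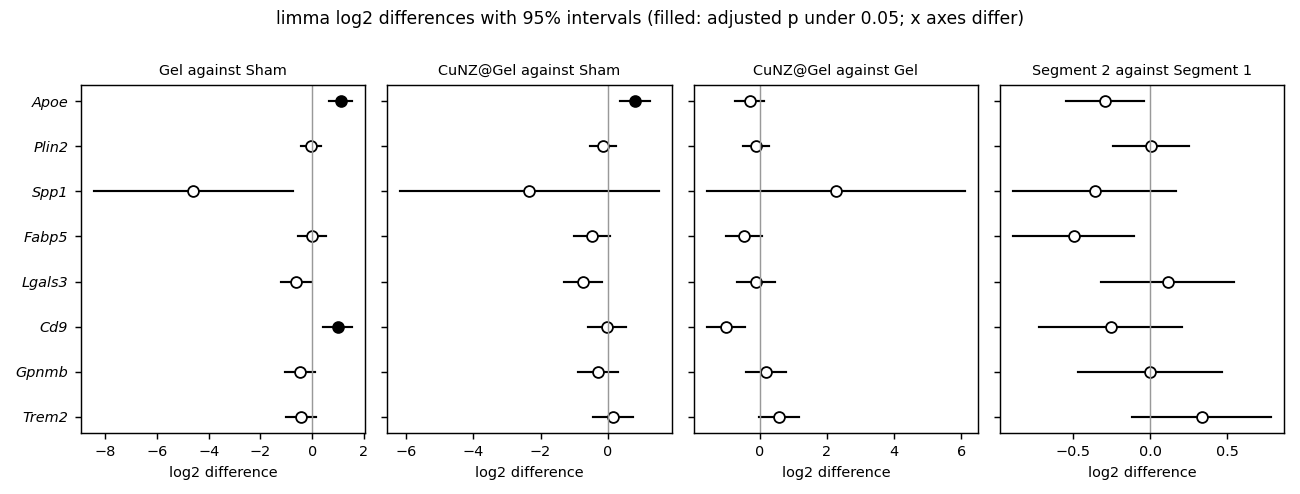
Points are limma log2 differences of the 8 genes in 4 comparisons with 95% intervals, filled where the adjusted p was under 0.05; the x axes differ between panels. Apoe and Cd9 are filled in Gel against Sham and Apoe in CuNZ@Gel against Sham, no gene is filled in the other panels, and the Spp1 interval is the widest in each treatment panel.

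In Gel against Sham, 2 of the 8 genes passed the limma test, Apoe and Cd9, both higher, where 2.42% of all 19728 targets tested passed in either direction and 0.618% were higher. With CuNZ@Gel against Sham 1 of 8 passed (Apoe, higher), beside 1.31% of all targets in either direction and 0.324% higher. Between CuNZ@Gel and Gel 0 of 8 passed, beside 0.943% of all targets. There 1 of 8 (Cd9) had an unadjusted p under 0.05, while a limma p of 0.0539, that of Trem2, ranked 1403 of 19728 targets. edgeR and DESeq2 each called 1 (Spp1, higher in CuNZ@Gel). The median log2 difference of the 8 genes was -0.24 in Gel and -0.22 in CuNZ@Gel against Sham, beside 0.06 and 0.04 over all targets. For the 4 genes above background in at least 4 areas it was -0.02 and -0.31, beside -0.15 and -0.15 over all targets of that level, so in Gel the order against all targets turned. Of these 4, Spp1 exceeded background in 6 Sham, 0 Gel and 3 CuNZ@Gel areas, and Fabp5 in 4, 2 and 0. Both entered the set mainly through Sham areas, which biases its medians, so nothing is concluded from them. The mean log2 values of the specimens did not overlap between Gel and Sham for 6 of 8 genes, for 4 of 8 between CuNZ@Gel and Sham and for 5 of 8 between CuNZ@Gel and Gel, where 40.8%, 43% and 33.1% of all targets did the same. Among targets above background in at least 4 areas, 7.85%, 4.34% and 3.24% passed in the 3 comparisons, beside 1, 1 and 0 of the 4 genes of that level. The gene that passed was Apoe, above background in 7 Sham, 8 Gel and 8 CuNZ@Gel areas.

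Cd9, a tetraspanin that organises membrane partners, was the other gene called in Gel. It stood at 5.52 to 13.6 (median 10.3) in Gel areas, at 2.04 to 8.41 (median 4.50) in Sham and at 1.75 to 8.49 (median 4.64) in CuNZ@Gel. The log2 difference of Gel against Sham was 0.98 (SE 0.29, limma adjusted p = 0.0418), and 60 of 64 pairs of a Gel and a Sham area had the higher value in Gel. Every Cd9 value lay below its area's background and rested on 1 to 27 counts, and the call was lost in 14 of 20 settings, including the omission of any of the 6 specimens (adjusted p from 0.0568 to 0.378). CuNZ@Gel against Gel was -1.004 (95% interval -1.58 to -0.43), which did not pass (adjusted p = 0.0726).

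Plin2 coats lipid droplets and is a common readout of stored lipid. It had the smallest range over areas of the 8 genes, 1.29 log2 units: its 24 areas ran from 24.5 to 61.3, and the specimen means averaged 43.2 ± 7.42 for Sham, 40.8 ± 0.438 for Gel and 38.9 ± 3.16 for CuNZ@Gel (SD, n = 2). The log2 difference was -0.04 in Gel (95% interval -0.43 to 0.35, adjusted p = 0.966) and -0.15 in CuNZ@Gel against Sham (-0.54 to 0.24, adjusted p = 0.846).

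Fabp5, a cytosolic carrier of fatty acids, averaged 14.0 ± 6.10 for Sham, 13.3 ± 3.82 for Gel and 9.25 ± 2.48 for CuNZ@Gel. The highest Sham value was 27.6, in region 1 of specimen 1, and 4 of 8 Sham, 2 of 8 Gel and 0 of 8 CuNZ@Gel areas exceeded background. Its log2 difference was 0.004 in Gel (adjusted p = 0.999) and -0.47 in CuNZ@Gel against Sham (95% interval -1.001 to 0.06, adjusted p = 0.552).

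Lgals3 encodes galectin-3, a sugar-binding protein of phagocytes. It averaged 10.8 ± 3.21 for Sham, 6.48 ± 0.0560 for Gel and 6.46 ± 1.93 for CuNZ@Gel, with log2 differences from Sham of -0.63 (adjusted p = 0.335) and -0.74 (adjusted p = 0.260). Trem2, the lipid-sensing receptor, averaged 4.82 ± 2.06, 3.21 ± 0.240 and 5.54 ± 2.12 in the same order, on 1 to 16 counts per area. Gpnmb, a glycoprotein of lysosome-rich cells, averaged 5.30 ± 0.450, 3.48 ± 0.188 and 4.09 ± 0.246, on 1 to 35 counts. Neither passed in any treatment comparison, and every value of both lay below its area's background.

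The segments of a region were compared within specimens. Between Segment 2 and Segment 1, 0 of 8 genes passed limma's test, where 1.93% of all targets did, and 5.49% of those above background. A low unadjusted p was common here, since a limma p of 0.0249, that of Apoe, ranked 2068 of 19728 targets. Of the 8 genes, 2 had an unadjusted p under 0.05. These were Fabp5, lower in Segment 2 in 5 of 6 specimens (log2 difference -0.50, 95% interval -0.89 to -0.10, adjusted p = 0.187), and Apoe, lower in 4 of 6 (-0.29, -0.55 to -0.04, adjusted p = 0.238). Scaling to the median instead called both, but it also called far more targets over the whole array than the main fit did. Both of those numbers are given below. Trem2 (0.33), Lgals3 (0.11), Plin2 (0.005), Gpnmb (-0.002), Cd9 (-0.26) and Spp1 (-0.36) had intervals that include 0.

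**Figure D3:**
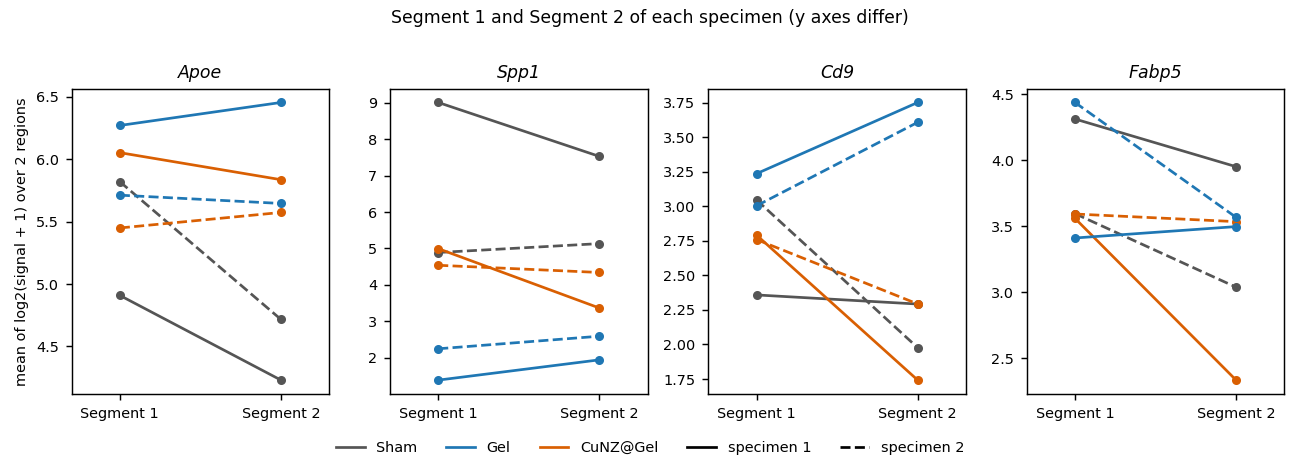
Lines join the mean of log2(signal + 1) over 2 regions in Segment 1 and Segment 2 of each specimen, coloured by treatment and solid for specimen 1, dashed for specimen 2; the y axes differ. The Apoe mean is lower in Segment 2 in both Sham specimens (differences of -0.68 and -1.10) and stays within 0.22 in the Gel and CuNZ@Gel specimens, and Cd9 is higher in Segment 2 only in the Gel specimens.

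For Apoe the fitted differences from Sham were the larger ones in Segment 2 areas. There Gel against Sham was 1.58 (limma adjusted p = 1.22e-05) and CuNZ@Gel against Sham 1.23 (adjusted p = 0.00794), while in Segment 1 the same differences were 0.63 (adjusted p = 0.634) and 0.39 (adjusted p = 0.769). The Segment 2 areas of Sham held 6 to 25 Apoe counts. The test of the difference itself, limma's interaction of treatment and segment over all targets, did not pass for Apoe (adjusted p = 0.451). It called 0 of the 8 genes and 0.0507% of all targets. An unadjusted p under 0.05 was seen for 3 of 8 (Apoe, Cd9 and Spp1), and the share of all targets at that level was not counted.

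Spp1 was called in Segment 2 areas alone: -4.07 in Gel (adjusted p = 6.17e-22) and -2.48 in CuNZ@Gel against Sham (adjusted p = 1.13e-07), and 1.59 in CuNZ@Gel against Gel (adjusted p = 0.0069). These p-values rest on an SE of 0.377 with a spread pooled over targets, while the log2 SD between specimens in Segment 2 was 1.69 for Sham, 0.46 for Gel and 0.69 for CuNZ@Gel. In Segment 1 areas the differences were -5.13, -2.18 and 2.95, none called (adjusted p = 0.481, 0.751 and 0.837). Within segments 1.85% (Segment 1) and 1.56% (Segment 2) of all targets passed in Gel against Sham.

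Spp1 also differed between the regions of 1 specimen. In Sham specimen 2 the Spp1 level of region 2 differed from that of region 1 by -4.12 log2 units (3.50 and 12.3 against 194.1 and 92.0), and in CuNZ@Gel specimen 1 the same difference was -2.53, while the Gel regions differed by at most 0.263. Apoe ran opposite in both: region 2 was 1.53 log2 units above region 1 in Sham specimen 2 and 0.65 above in CuNZ@Gel specimen 1. In Sham specimen 2 the summed fibroblast markers were also higher in region 2 (32703 and 20369) than in region 1 (13713 and 10837), and the summed macrophage markers were 2095 and 1758 against 1867 and 1153; their part in the difference was not tested.

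Across the 24 areas, after centring on treatment and segment, Apoe and Spp1 had a Pearson r of -0.70 (Spearman rho -0.55). It was -0.74 in each segment (12 areas each) and -0.39 without Sham specimen 2. Areas of a specimen are not independent, so these are descriptions. Depth differed within specimens, from 160735 to 1476499 counts in Sham specimen 2, and its part in these correlations was not tested. Lgals3 and Plin2 had r = 0.78 over the 24 areas, but 0.10 in Segment 1 and 0.86 in the shallower Segment 2. The targets most similar to Spp1 by the same measure, among 5550 above background, were S100a4 (0.70), a calcium-binding protein of motile cells, and Atf6 (0.68). For Apoe they were Entpd4 (0.81) and Blcap (0.77), for Plin2 Gng11 (0.84) and Dnaja1 (0.81), and for Fabp5 Atp8b1 (0.79) and Casp2 (0.74).

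**Figure D4:**
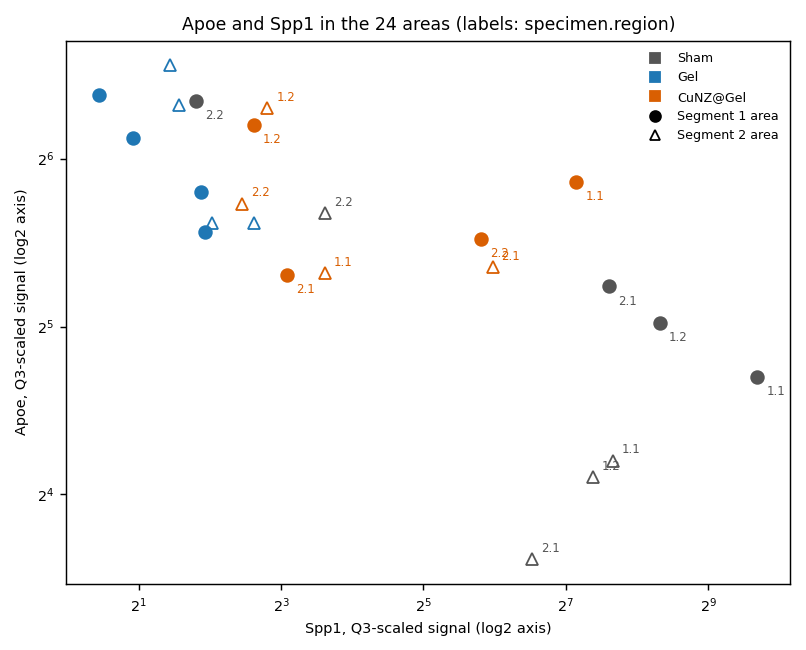
Apoe against Spp1 signal in the 24 areas (both log2 axes), coloured by treatment, with filled circles for Segment 1, open triangles for Segment 2 and specimen.region numbers beside Sham and CuNZ@Gel areas. The Gel areas cluster at low Spp1 and high Apoe, 6 Sham areas lie at Spp1 signals of 92.0 or more with Apoe at 37.8 or less, and the 2 areas of region 2 of Sham specimen 2 lie beside the Gel areas.

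Genes of the same pathway were also read. Of 20 companion genes of the lipid-associated state, 11 were above background, and 2 fell in Gel against Sham: Cd63, a tetraspanin of lysosomes and exosomes (log2 difference -0.68, limma adjusted p = 0.0108), and Ctsd, a lysosomal protease (-0.77, adjusted p = 0.0197). Against Sham, CuNZ@Gel had 3 that fell, Cd63 (-0.71), Ctsd (-0.87) and the protease Ctsl (-1.42), and 1 rose, Lyz2, the macrophage lysozyme (0.71), which was named after its value was seen. Ctsl was also lower in CuNZ@Gel than in Gel (-1.49, adjusted p = 3.08e-05). The list's median log2 difference was 0.05 in Gel and -0.10 in CuNZ@Gel against Sham, beside 0.06 and 0.04 over all targets.

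Of 13 genes of TREM2 signalling, 7 were above background and 1 passed in each treatment comparison, Ms4a4a, a membrane protein that interacts with TREM2. Its median signal was 62.4 in Sham and 2.59 in Gel, a log2 difference of -3.91 (limma adjusted p = 1.24e-31), and it was -1.07 in CuNZ@Gel against Sham (adjusted p = 0.00193) and 2.83 in CuNZ@Gel against Gel (adjusted p = 2.83e-20). Tyrobp, the adaptor through which TREM2 signals, Syk and Inpp5d exceeded background in 0 of 24 areas. In Segment 2 against Segment 1, 3 genes of this list fell: Ms4a4a (-0.67), Adam10 (-0.45) and Adam17 (-0.55), both ADAM genes encoding proteases that can shed TREM2. Over all targets above background the median of this difference was -0.20, that is, lower in Segment 2.

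The cholesterol efflux genes (18) and the lipid droplet and fatty acid genes (18) had 0 genes past limma's test in any treatment comparison. At an unadjusted p under 0.05 they had 4 and 2 in Gel, and 1 and 4 in CuNZ@Gel, against Sham. Over all 19728 targets, a limma p of 0.0308 ranked 1809 in Gel against Sham, and a p of 0.0109 ranked 825 in CuNZ@Gel against Sham. In Segment 2, Abca1, the cholesterol exporter that loads APOE, was lower (-0.57, adjusted p = 0.00229), as were Lrp1, a receptor for APOE (-0.41, adjusted p = 0.0194), and Cd36, a fatty acid scavenger receptor (-0.70, adjusted p = 2.53e-05). The median segment difference of all targets above background was -0.20, and both lists had 0 genes called higher in Segment 2. Whether these genes differ from that general shift was not tested. Segment calls over the whole array also changed with the processing, as given below.

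Of 9 osteopontin receptor genes 6 were above background, and 2 fell in each comparison with Sham. Itga8, an integrin subunit that binds osteopontin, was lower in Gel (-2.12, adjusted p = 5.42e-13) and CuNZ@Gel (-1.28, adjusted p = 6.19e-05), and higher in CuNZ@Gel than in Gel (0.84, adjusted p = 0.0415). Itgb5 was lower in Gel (-0.72, adjusted p = 0.0447) and Itgb3 in CuNZ@Gel (-1.03, adjusted p = 0.0213). Among relatives of the 8 genes, Lgals1, the gene of galectin-1, fell in Gel (-1.29) and CuNZ@Gel (-1.44).

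Against Sham, 2 of 12 fibroblast markers fell in Gel and 2 in CuNZ@Gel, Fap (-1.32 and -1.02) and Lum (-1.13 and -0.80). Of 8 smooth muscle and pericyte markers, Tagln fell (-3.01) and Mcam rose (0.63) in Gel, and 0 passed limma's test in CuNZ@Gel. The summed fibroblast markers ran from 10837 to 32703 in Sham areas, 1977 to 11547 in Gel and 7432 to 12746 in CuNZ@Gel, and the smooth muscle and pericyte markers from 656 to 1224, 138 to 641 and 379 to 934. The summed macrophage markers ran from 1153 to 2095, 1443 to 2410 and 1229 to 1659. Of the 20 genes of that list, 1 rose and 0 fell in Gel against Sham, and 1 rose and 3 fell in CuNZ@Gel. C1qb, a complement subunit, rose in Gel (1.46) and fell in CuNZ@Gel (-3.28), Mrc1, the mannose receptor, fell in CuNZ@Gel (-0.81), and Lyz2 is the gene that rose there (0.71, adjusted p = 0.0211). The other C1q subunits of the list did not share the fall of C1qb, and neither passed against Sham. Median signals in Sham, Gel and CuNZ@Gel were 45.7, 51.3 and 45.5 for C1qa and 97.8, 191 and 204 for C1qc. For C1qb they were 48.3, 123 and 3.68. Of the adipocyte markers 1 of 10, Fabp4, was above background, with median signals of 50.4 (Sham), 208 (Gel) and 116 (CuNZ@Gel), and it did not pass limma's test in Gel against Sham (adjusted p = 0.518). The part of these cells in the Apoe and Spp1 differences was not tested.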

How the data were processed

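The authors' deposited files hold a signal per target and area, scaled so that the 75th percentile is about 12.3; the counting and scaling software is not given in the sources used here. Dividing by the value of 1 count gave whole numbers, within 0.01, for 99.98% to 99.995% of an area's values, so counts were recovered, and the negative probe was left out. The files name no genome build, so no coordinates are given. All 8 genes match a RefSeq symbol of assembly GRCr8.

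Values were taken as log2(signal + 1), which understates changes of low genes, and averaged over the 4 areas of a specimen. The 19728 targets that exceeded the negative probe in 4 or more areas went into limma 3.58.1 (R 4.3.3; trend, robust), with Benjamini-Hochberg adjustment over all of them and a threshold of 0.05. For segments, specimen was a block. The fits were also run on simulated data, in which the spread between specimens was set alike for every target. The own SD between specimens of the 8 genes ran from 0.128 (Gpnmb) to 1.37 (Spp1). The simulation therefore does not show how well calls of these genes hold. edgeR 4.0.16 and DESeq2 1.42.0 on recovered counts were alternatives: edgeR called 369 targets in Gel against Sham, 165 in CuNZ@Gel against Sham and 138 in CuNZ@Gel against Gel, and DESeq2 164, 64 and 57. Other alternatives varied scaling, pseudocount, filter, averaging, thinning, samples left out and specimen number as a block.

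The members and lists were chosen with earlier results of these data known. Named genes are the 8 members, up to 3 per list past the threshold with the smallest p, and the 2 targets most correlated with each member; the neighbours of Trem2, Gpnmb, Cd9 and Lgals3 are not reported. A single captured area is not a replicate.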

Additional observations from a re-analysis of the deposited data

Results flagged for a closer look

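Of 32 groups of values (24 of the 8 areas of a treatment, 8 of the segment differences of 6 specimens), 5 held an area far from the others of its group by Dixon's test. Chance gives such a value in about 1 in 20 groups of independent, normally distributed values. The areas share specimens and their signals were taken unlogged, so the number flagged cannot be set against that rate. Spp1 reached 827 in Segment 1 of region 1 of Sham specimen 1, with 320 as the next value, and 142 in Segment 1 of region 1 of CuNZ@Gel specimen 1, with 62.7 next. Lgals3 reached 19.6 in Segment 2 of region 2 of Sham specimen 1, with 12.3 next, and 15.8 in Segment 2 of region 2 of CuNZ@Gel specimen 1, with 8.18 next. Trem2 reached 12.3 in Segment 2 of region 1 of CuNZ@Gel specimen 2, with 6.13 next.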

How the results depend on the processing

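The direction of Apoe against Sham (higher) and of Spp1 in Gel against Sham (lower) held in all 22 alternatives run for each. Over all genes and comparisons, 530 of 644 alternative values kept their direction and side of the threshold, 38 lost a call, 26 gained one and 50 changed sign, 0 of these called. DESeq2 gave no adjusted p for some low genes, which have no value there. Trem2, Gpnmb, Cd9 and Lgals3 also have no value in the fit of targets above background alone, which leaves them out. The cause of the changed calls and signs was not tested. Trem2, Gpnmb and Cd9 exceeded background in 0 areas and Lgals3 in 2, and Segment 2 areas held a median of 170040 counts.

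In Gel against Sham, where 2 genes were called, 0 were called under quantile normalization, thinned counts and Segment 1 alone, and 1 under median scaling, targets above background alone, no trend and robust, the mean of linear values, edgeR, DESeq2 and the 2 groups alone. With no trend and robust, edgeR and DESeq2 that 1 gene was Spp1, which the main fit did not call. The fit of targets above background alone does not hold Cd9. In Segment 2 alone Apoe and Spp1 were called, and Cd9 was not. Equal counts therefore need not mean the same genes, also with 1 specimen left out. Leaving out 1 specimen gave 1 to 2. For CuNZ@Gel against Sham (1 called), 0 were called under quantile normalization, median scaling, pseudocount 4, targets above background alone, no trend and robust, thinned counts, linear means, 24 areas, edgeR, DESeq2 and Segment 1 alone, and 2 in Segment 2 alone and with the 2 groups alone. Leaving out 1 specimen gave 0 to 2. Between CuNZ@Gel and Gel (0 called), 1 was called under quantile normalization, 24 areas, edgeR, DESeq2, Segment 2 alone and the 2 groups alone, and 0 to 1 when 1 specimen was left out. Between segments (0 called), median scaling called 2. The interaction called 0 in every alternative.

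Over all targets tested, the deviations of specimens with the same number had correlations of -0.0159 for Sham and Gel, -0.0181 for Sham and CuNZ@Gel and 0.0744 for Gel and CuNZ@Gel. These array-wide values cannot show whether such specimens share more than a number. With the specimen number as a replicate block 2, 0 and 0 genes were called in the 3 treatment comparisons; Apoe in CuNZ@Gel against Sham had an adjusted p of 0.0709.

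Targets called over the whole array in Gel against Sham numbered 478, but 176 without trend and robust, 251 with thinned counts, 164 with DESeq2, 308 in Segment 2, 771 over 24 areas, 271 without Sham specimen 1 and 752 without Gel specimen 2. For CuNZ@Gel and Sham they numbered 259, but 44 without trend and robust, 70 thinned, 64 with DESeq2, 116 in Segment 2, 146 with median scaling, 162 with quantile normalization, 165 with edgeR, 517 over 24 areas, 461 with the 2 groups alone, and 72 to 458 with 1 specimen left out. For CuNZ@Gel and Gel they numbered 186, but 75 without trend and robust, 97 thinned, 57 with DESeq2, 119 in Segment 2, and 95 to 293 with 1 specimen left out. Between segments they numbered 381, but 0 without trend and robust, 57 thinned, 130 with quantile normalization and 1326 with median scaling.

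Values that changed sign were all within 0.56 log2 units of 0. In Gel against Sham, Fabp5 became -0.046 with quantile normalization, -0.13 with median scaling, -0.010 with pseudocount 4, -0.31 thinned, -0.036 with linear means, -0.10 with edgeR, -0.15 with DESeq2 and -0.030 in Segment 1. Plin2 became 0.21 with quantile normalization and 0.020 thinned, and Gpnmb 0.011 in Segment 2. In CuNZ@Gel against Sham, Trem2 became -0.066 and Cd9 0.19 thinned, Cd9 0.073 and Plin2 0.00010 in Segment 1, Plin2 0.041 with quantile normalization, and Gpnmb 0.18 in Segment 2. In CuNZ@Gel against Gel, Gpnmb became -0.46 thinned, Lgals3 0.020 in Segment 2, and Plin2 0.026 with edgeR, 0.040 with DESeq2 and 0.076 in Segment 1. Between segments, Gpnmb became 0.0039 with pseudocount 0.5, Spp1 0.14 and Lgals3 -0.039 thinned, Lgals3 -0.012 and Plin2 -0.14 with median scaling. In Gel areas alone the segment differences were 0.059 for Apoe, 0.33 for Gpnmb, 0.45 for Spp1, 0.56 for Cd9 and -0.15 for Lgals3, and in CuNZ@Gel areas alone 0.30 for Gpnmb and -0.22 for Plin2. With 1 specimen left out, Gel against Sham ran from -0.40 to 0.41 for Fabp5 and -0.22 to 0.13 for Plin2; CuNZ@Gel against Sham from -0.21 to 0.51 for Trem2, -0.15 to 0.11 for Cd9 and -0.33 to 0.023 for Plin2; CuNZ@Gel against Gel from -0.63 to 0.049 for Apoe and -0.33 to 0.097 for Lgals3; and the segments from -0.22 to 0.22 for Gpnmb and -0.055 to 0.081 for Plin2. A specimen left alone in its group is assumed to vary like the others.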
